A study of Mus musculus with 8 samples.

Results

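The 10 genes described here encode integrin subunits that bind the Arg-Gly-Asp (RGD) tripeptide, belong to the α4 and α9 family, or partner such chains. Not all such chains are included, and Itgb1 and Itga2b were read with the other integrin subunits. The 10 are the alpha genes Itgav, Itga5, Itga8, Itga4 and Itga9, and the beta genes Itgb3, Itgb5, Itgb6, Itgb7 and Itgb8. They were read out by symbol, and all 10 were found among the 23284 gene symbols of the count tables. RNA-Seq was performed on ID8 IP2, a mouse ovarian surface epithelial cancer line. It is a subline of ID8 recovered after growth in C57BL/6 mice, and here it also carried a lentiviral luciferase and mCherry reporter in every group. Cells were stably infected either with pCCL lentivirus encoding the HA-tagged intracellular domain of Notch3 followed by IRES-GFP (Notch3IC, 4 libraries) or with the empty pCCL virus (Control, 4 libraries). Sets 1 to 4 are separate infections, and each set gave 1 Control line and 1 Notch3IC line. Expression of the domain was driven by the viral vector and not by the resident gene, and the cultures were later found by the authors to be probably positive for mycoplasma. Library totals ran from 19013578 to 28208072 counts in Control and from 15524262 to 27107061 in Notch3IC, and the smallest library was Notch3IC of Set 2.

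Integrins are receptors of 1 alpha and 1 beta chain that span the membrane and hold cells to the extracellular matrix. The αv chain can pair with β1, β3, β5, β6 or β8, while α5, α8 and α9 pair with β1, and α4 pairs with β1 or β7. Members of the RGD-binding group recognize fibronectin, vitronectin and fibrillin, and several αv receptors bind the latency peptide of TGF-β, a step in releasing that growth factor. The α4 and α9 chains bind other partners, including VCAM-1, tenascin-C, osteopontin and an alternative segment of fibronectin. In ovarian cancer these receptors are studied for their part in attachment of floating tumor cells to the matrix under the peritoneal lining.

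Promoter sequences are shown for a beta gene that rose (Itgb5) and for its alpha partner, which stayed near its Control level (Itgav). The pair was chosen because its transcripts changed by different amounts in these lines. Both are the 250 bases before the RefSeq start site on GRCm38.p6, written 5′ to 3′ on the plus strand, at chr16:33829415-33829664 for Itgb5 and chr2:83724147-83724396 for Itgav. Capitals mark the GC box GGGCGG or its reverse complement CCGCCC.
Itgb5: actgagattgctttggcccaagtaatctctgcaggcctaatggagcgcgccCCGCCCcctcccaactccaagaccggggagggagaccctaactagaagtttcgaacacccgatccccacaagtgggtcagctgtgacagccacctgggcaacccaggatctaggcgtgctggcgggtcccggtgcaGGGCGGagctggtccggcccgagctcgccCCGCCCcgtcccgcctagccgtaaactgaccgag
Itgav: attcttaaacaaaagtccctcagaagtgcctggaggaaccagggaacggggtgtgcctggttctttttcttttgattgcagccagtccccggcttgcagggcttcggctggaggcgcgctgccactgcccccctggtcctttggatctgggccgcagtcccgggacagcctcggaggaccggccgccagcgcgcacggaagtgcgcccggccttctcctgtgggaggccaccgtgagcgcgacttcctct
The stretch before Itgb5 held 3 GC boxes and that before Itgav held 0, and the window of Itgav held its 1 GC box in the first bases after the start. Before Itga5 there were 2 and before Itga4 there was 1, and neither of these genes was called. A relation of GC boxes to the change in expression was not tested. RefSeq promoter windows of 300 bases (250 before and 50 after the start) were matched for 9 of the 10 genes, as 10 windows, and Itgb3 had no entry. On both strands, the GC box was in 4 of the 10 windows, against 35.7% of 32851 promoter windows of the genome. The core TGGGAA recognized by RBPJ, the DNA-binding partner of the Notch intracellular domain, was in 0 of the 10, against 25.6% of all windows. That count says only that these 6 letters were absent from these windows. The E-box CACGTG, which contains no RBPJ core, was likewise in 0 of the 10, against 7.15% of all. The Itga9 window lay 105002 bases inside the GENCODE gene, the second Itgb6 window 48950 bases inside and the Itgb8 window 526 bases inside, so that these 3 do not cover the annotated 5′ end, and they held 0 of the motifs searched.

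Activity of the inserted domain was checked first. Notch3 had 38.7, 40.6, 70.8 and 42.0 normalized counts in Control (Sets 1 to 4 in order), and 4320, 467, 9214 and 5838 in Notch3IC. A normalized count is the count scaled by library total and TMM factor to the mean library total. Reads of the insert and of the resident gene cannot be told apart in these counts. Notch3 was higher in all 4 Notch3IC lines than in any Control line, least so in Set 2, with a log2 fold change (log2FC) of 6.69 (standard error, SE, 0.88, adjusted p = 0.0169 by edgeR's quasi-likelihood test with Benjamini-Hochberg adjustment). Its known targets rose with it, namely Hey1 (log2FC 7.35), Nrarp (7.34) and Heyl, and for each the log2 ratio was smallest in Set 2. The exon bases of Nrarp lie to 79.4% opposite Gm38287. Set 2 therefore had the weakest Notch response of the 4 infections, and ratios are given by set throughout.

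Expression of the 10 subunit genes changed unevenly. Itga9, Itgb3 and Itgb5 were called higher in Notch3IC, and 0 genes were called lower. The thresholds were those the study used, an adjusted p under 0.1 and a log2FC of 1 or more in either direction. Of the 10 genes, 7 passed the filter on low counts and were tested, so the 3 calls stand beside 423 of 12430 genes called higher (3.40%) and 92 called lower (0.740%) in the same fit. DESeq2 and the fit with the matched set as a block called the same 3 genes. Over all genes, the block called 645 higher (5.19%) and 315 lower (2.53%), and DESeq2 called 708 higher (5.05% of 14019 genes with an adjusted p) and 192 lower (1.37%). At an unadjusted p under 0.05 there were 4 of the 7, beside 2289 of all genes tested (18.4%), all 4 with a positive log2FC, and the added gene was Itga4. The median log2FC of the 7 was 1.39, against -0.01 over all genes tested, and the set medians were 0.65, 0.07, 2.18 and 2.05 in Sets 1 to 4.

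**Figure D1:**
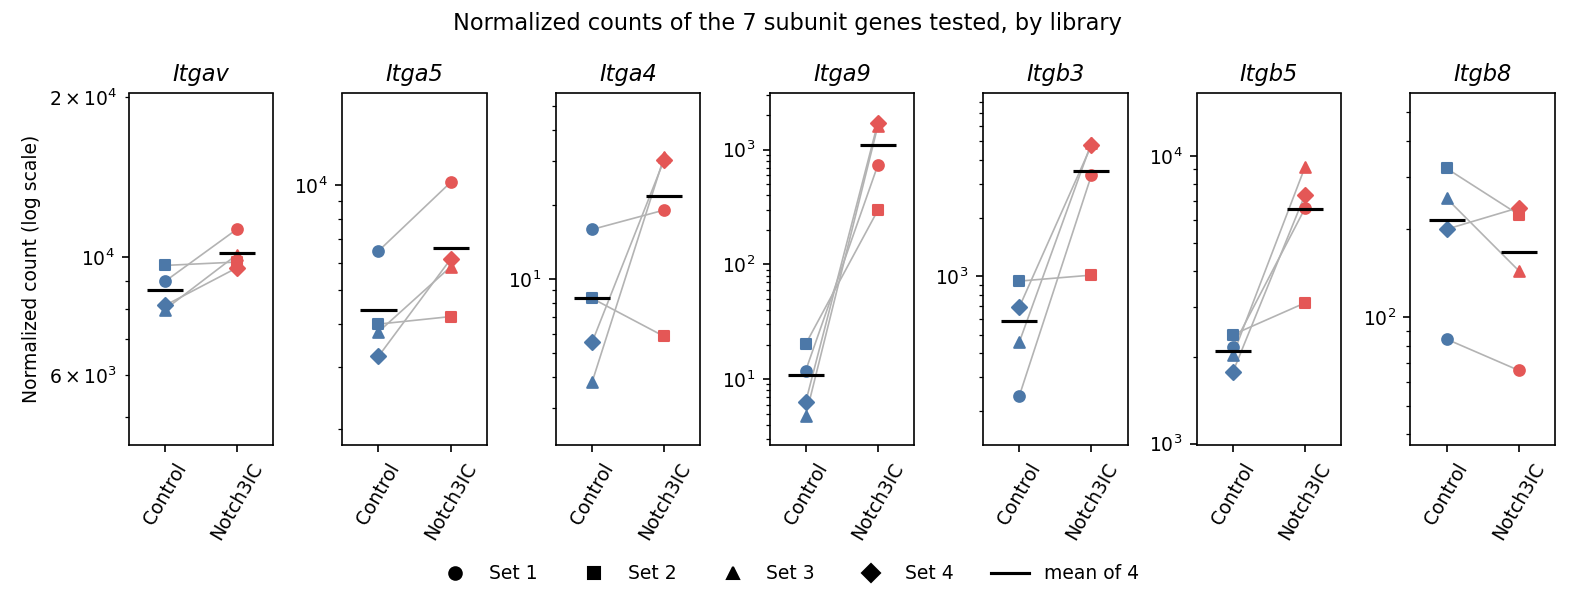
Normalized counts (vertical axis, log scale, with its own range in each panel) of the 7 subunit genes tested, for Control (blue) and Notch3IC (red), with marker shape for the set, grey lines joining the lines of a set and a black bar at the mean of 4. Itga9, Itgb3 and Itgb5 lie higher in every Notch3IC line than in every Control line, whereas the groups overlap for the other 4 genes.

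Among the alpha chains, the largest difference was in Itga9, which encodes the chain that joins β1 to bind tenascin-C and fibronectin. Its raw counts were 12, 17, 5 and 8 in Control, Sets 1 to 4 in order, and 657, 203, 1756 and 2035 in Notch3IC. The gene thus went from a few reads per library to at least 203, with the lowest Notch3IC value in Set 2 and no overlap between the groups. In normalized counts the change was from 10.8 ± 7.0 to 1091 ± 689 (SD, n = 4 per group), a log2FC of 6.70 (SE 0.72, 95% interval 5.06 to 8.34, adjusted p = 0.0151 by edgeR). Within the sets the log2 ratios were 5.89, 3.84, 8.26 and 8.0. The interval from counting error in Set 2, 3.16 to 4.68, lay below those in Sets 3 and 4, which were 7.17 to 10.0 and 7.10 to 9.30. Itga9 was called in each of the 8 fits that left out 1 library (adjusted p from 0.000481 to 0.0854), but not with both lines of Set 3 (0.215) or of Set 4 (0.218) left out. The log2FC was then 6.20 and 6.19, and edgeR called at most 1 gene of all tested in either of these fits. The gene lies on chromosome 9 of GRCm38 from 118606690 to 118901003 (plus strand), and none of its exon bases overlap another gene.

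The other α4 and α9 family chain, Itga4, was scarce. Counts of 16, 7, 4 and 7 in Control compared with 17, 4, 34 and 36 in Notch3IC. Only Sets 3 and 4 differed by more than counting error, with log2 ratios of 2.88 and 2.37, while those of Sets 1 and 2 were 0.26 and -0.44 with counting intervals that included 0. The groups overlapped, and the log2FC of 1.39 (SE 0.58) had an adjusted p of 0.248 by edgeR. Without the Notch3IC library of Set 2, Itga4 was called, at a log2FC of 1.68 and an adjusted p of 0.0737. That was the only 1 of the 8 fits without 1 library to call Itga4 (adjusted p up to 0.525 by edgeR). It was not called with both lines of Set 2 left out (0.139) or with the set as a block (0.1485). On the other strand, the gene Cerkl covers 8.04% of the exon bases of Itga4, and whether the counting used strand is not given in the sources used here. Itgb7, the leukocyte partner of α4, had 4, 6, 5 and 15 counts in Control and 4, 3, 3 and 8 in Notch3IC. At 30 counts against 18 summed over each group it did not pass the filter, and without the filter its log2FC was -0.59 (adjusted p = 0.597 by edgeR).

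Itgav, which codes for the αv chain, was abundant in every line. It had 9000, 9647, 7967 and 8109 normalized counts in Control and 11291, 9790, 10113 and 9551 in Notch3IC. The Notch3IC line was the higher in each of the 4 sets, as it was for 21.1% of all genes tested, but the groups overlapped. Its log2FC was 0.23 with a SE of 0.10 and a 95% interval from -0.01 to 0.47 (adjusted p = 0.284 by edgeR, and 0.0823 with the set as a block), so a log2 change of 1 lies outside that interval. Itgav is on chromosome 2 from 83724397 to 83806916, and 5.90% of its exon bases lie opposite Gm13684.

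Itga5 encodes the main fibronectin receptor chain, α5. The Control lines had 6478, 3994, 3796 and 3228 normalized counts, and the Notch3IC lines had 10197, 4198, 5834 and 6137. Both lines of Set 1 were the highest of their group, and Set 2 showed nearly equal values. The log2 ratios were 0.65, 0.07, 0.62 and 0.93, and the log2FC of 0.59 (SE 0.30, adjusted p = 0.344 by edgeR, and 0.0482 with the set as a block) was below the limit for a call. It ranged from 0.31 without Notch3IC of Set 1 to 0.84 without Control of Set 1. Itga8, whose product with β1 binds nephronectin, had 0 or 1 count in each Control line and 0, 1, 3 and 7 in the Notch3IC lines. Its 3 reads in Control and 11 in Notch3IC correspond to 0.0309 CPM (exact Poisson 95% interval 0.00638 to 0.0904) and 0.122 CPM (0.0611 to 0.219), and these intervals, which cover counting error only, overlap.

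Among the beta chains, Itgb3 encodes β3, the partner of αv in the vitronectin receptor. Control lines had 241, 945, 457 and 693 normalized counts, and Notch3IC lines had 3337, 1014, 4900 and 4763. In Set 2 the values were close to each other, since its Control line was the highest of the Controls and its Notch3IC line the lowest of its group, so the groups did not overlap but nearly met. The log2 ratio was 0.10 in Set 2 (counting interval -0.05 to 0.25), against 3.79, 3.42 and 2.78 in Sets 1, 3 and 4. Over all 8 libraries Itgb3 rose from 584 ± 303 to 3504 ± 1804 (SD, n = 4 per group), a log2FC of 2.59 (SE 0.56, 95% interval 1.32 to 3.86, adjusted p = 0.0456 by edgeR). The call was lost in 4 of the 8 fits that left out 1 library, with adjusted p of 0.147 and 0.143 without the Control lines of Sets 3 and 4, and 0.120 and 0.144 without the Notch3IC lines of those sets. In these 4 fits the log2FC was 2.48, 2.68, 2.38 and 2.41, and the genes called higher over the whole table numbered 75, 99, 201 and 155, against 423 with all libraries. Leaving out Set 2 as a whole gave an adjusted p of 0.00897, and leaving out Set 3 or Set 4 gave 0.336 or 0.381. Itgb3 spans 104608000 to 104670476 on chromosome 11 (plus strand).

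Itgb5 encodes β5, another vitronectin-binding partner of αv, and was the most abundant of the 3 called genes. The Control lines were close together at 2177, 2395, 2034 and 1778 normalized counts, and the Notch3IC lines had 6600, 3090, 9194 and 7360. All 4 Notch3IC lines exceeded all Control lines, with Set 2 again the smallest at a log2 ratio of 0.37 (counting interval 0.28 to 0.46), and Sets 1, 3 and 4 at 1.60, 2.18 and 2.05. The log2FC was 1.65 (SE 0.29, 95% interval 0.98 to 2.32, adjusted p = 0.0287 by edgeR). Itgb5 was called in 6 of 8 fits with 1 library left out, the exceptions being the Control lines of Sets 3 (0.107) and 4 (0.116), and in 2 of 4 fits with a set left out (0.246 without Set 3 and 0.322 without Set 4). Its log2FC stayed between 1.43 and 1.95 over these 12 fits. Of all genes tested, 7.06% were, like these 3, higher in every Notch3IC line than in every Control line, while 3.77% were lower in every one.

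The remaining αv partners were scarce or did not differ beyond the replicates. Itgb8, whose product binds latent TGF-β, had 84.3, 322, 255 and 200 normalized counts in Control and 66.0, 224, 144 and 236 in Notch3IC. The Notch3IC line was the lower in Sets 1 to 3 and the higher in Set 4, the groups overlapped, and the log2FC was -0.36 (SE 0.48, 95% interval -1.45 to 0.73, adjusted p = 0.757 by edgeR). Counting intervals of the log2 ratio lay below 0 in Set 2 (-0.82 to -0.23) and Set 3 (-1.11 to -0.53), and included 0 in Sets 1 and 4. With the set as a block the SE was 0.19 (log2FC -0.36, adjusted p = 0.236 by edgeR). Itgb6, an epithelial chain that also binds latent TGF-β, was listed at 0 counts in 6 of the 8 libraries, with 4 counts in Control of Set 1 and 1 in Notch3IC of Set 3. Its summed counts correspond to 0.0413 CPM in Control (exact Poisson 95% interval 0.0112 to 0.106) and 0.0111 CPM in Notch3IC (0.000282 to 0.0620), a difference that could not be resolved at this depth. The common partner Itgb1 had 18113 ± 4840 normalized counts in Control and 19914 ± 5731 in Notch3IC (SD, n = 4 per group), a log2FC of 0.14 (SE 0.24, adjusted p = 0.821 by edgeR). The log2 ratio of Itgb1 within the sets ran from 0.05 to 0.18.

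**Figure D2:**
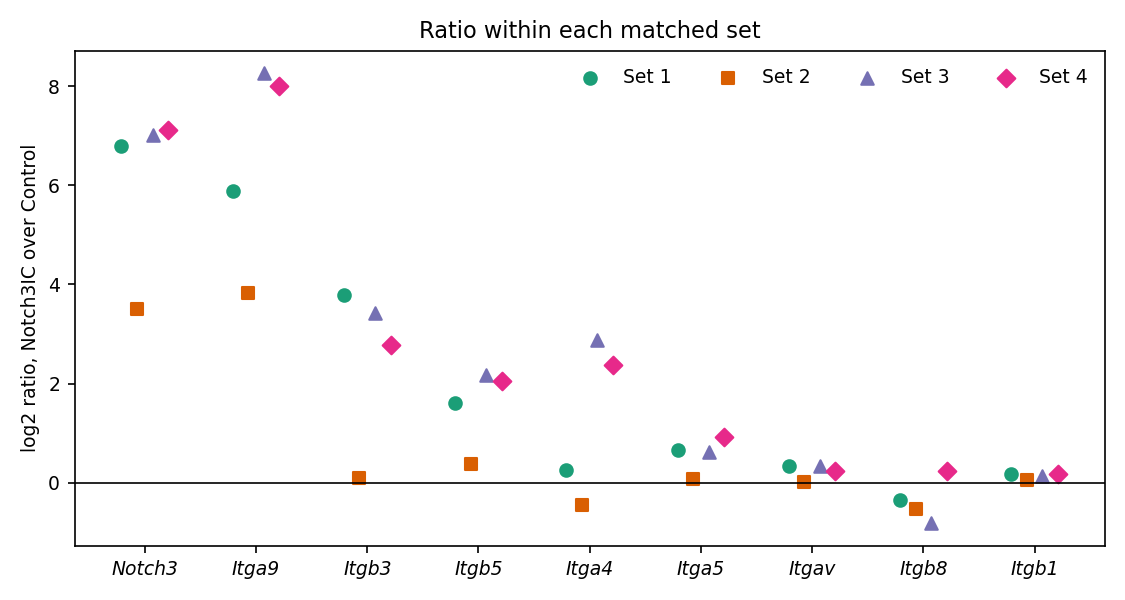
Log2 ratio of Notch3IC over Control within each matched set (vertical axis) for Notch3, the 7 subunit genes tested and Itgb1, with 1 point per set and 0.5 counts added to each count. The point of Set 2 is the lowest for every gene shown except Itgb8, and the points of Itgb1 all lie between 0.05 and 0.18.

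To compare the subunits with each other, levels were expressed per length, as CPM per kb of merged exon. In Control the order was Itgb1 at 190 ± 50.8, Itga5 at 38.0 ± 12.5, Itgav at 34.6 ± 3.15, Itgb5 at 25.3 ± 3.12, Itgb3 at 4.24 ± 2.20 and Itgb8 at 0.834 ± 0.390 (SD, n = 4), followed by Itgb7, Itga9, Itga4, Itgb6 and Itga8, whose means were all at or below 0.108. The ranges of Itga5 and Itgav overlapped, as did those of each neighbouring pair from Itgb7 down, and the other neighbours were apart. In Notch3IC the per-length order was Itgb1 at 209 ± 60.2, Itgb5 at 79.1 ± 30.8, Itga5 at 57.3 ± 22.2, Itgav at 40.6 ± 3.08, Itgb3 at 25.4 ± 13.1, Itga9 at 6.08 ± 3.84 and Itgb8 at 0.650. Here Itgb5 stood above Itga5 and Itgav by mean, although its range overlapped theirs, and Itga9 moved from the barely detected genes to a level above Itgb8. Even so, mean Itga9 per length stayed below that of Itgb3, with overlapping ranges, and far below that of Itga5.

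**Figure D3:**
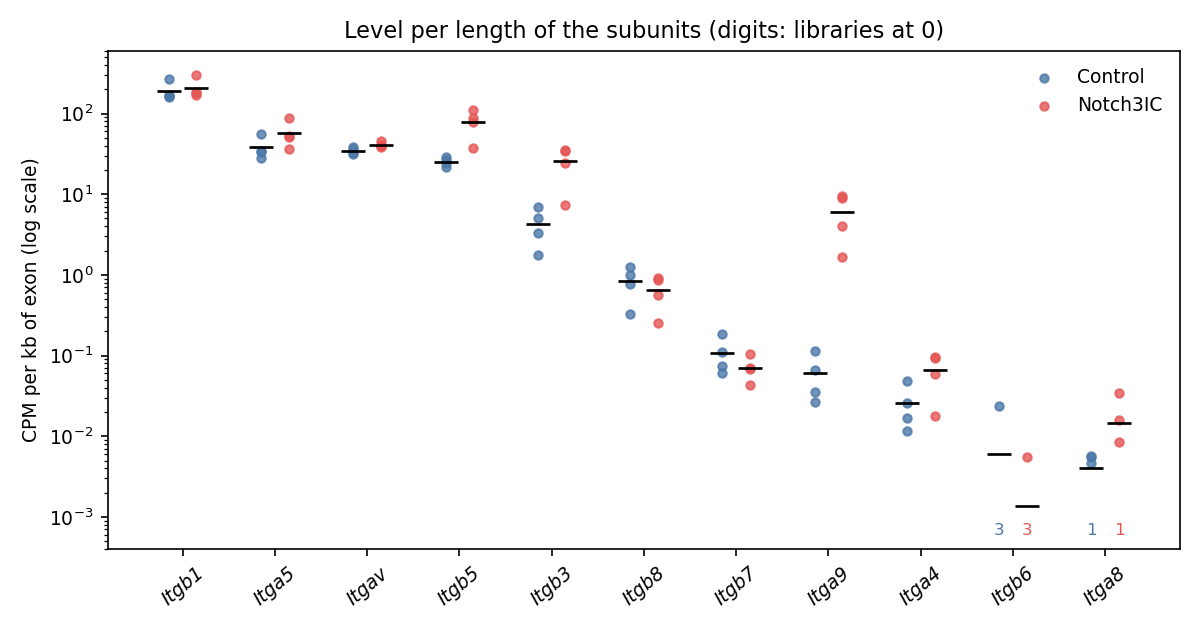
Level per length (CPM per kb of exon, log scale) of the 10 subunit genes and Itgb1 in the 4 Control (blue) and 4 Notch3IC (red) libraries, ordered by the Control mean, with black bars at the means and digits for libraries at 0. Itga9 moves from a mean of 0.0603 to 6.08, whereas Itga8, Itga4, Itgb6 and Itgb7 stay below 0.2 in every library.

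The make-up of the beta transcripts that can pair with αv was read in each library. As a share of the summed per-length level of Itgb1, Itgb3, Itgb5, Itgb6 and Itgb8, Itgb5 made up 8.91%, 14.3%, 12.4% and 11.5% in Control (Sets 1 to 4 in order) and 19.8%, 17.2%, 33.4% and 29.1% in Notch3IC. The share of Itgb3 was 0.594%, 3.39%, 1.68% and 2.69% in Control and 6.01%, 3.40%, 10.7% and 11.3% in Notch3IC. Both shares were higher in every Notch3IC line than in any Control line, though in Set 2 that of Itgb3 was 3.39% against 3.40%. The share of Itgb1 went the other way, from 85.8% ± 3.54 to 67.1% ± 11.3 (SD, n = 4 per group), while its own level was close to that in Control. Since the shares sum to 100%, a higher share of one chain lowers the others. With Itgb1 left out of the sum, the groups overlapped, and Itgb5 remained the largest component in every library, at 83.6% ± 6.78 in Control and 76.3% ± 4.32 in Notch3IC. No test was run on these shares.

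**Figure D4:**
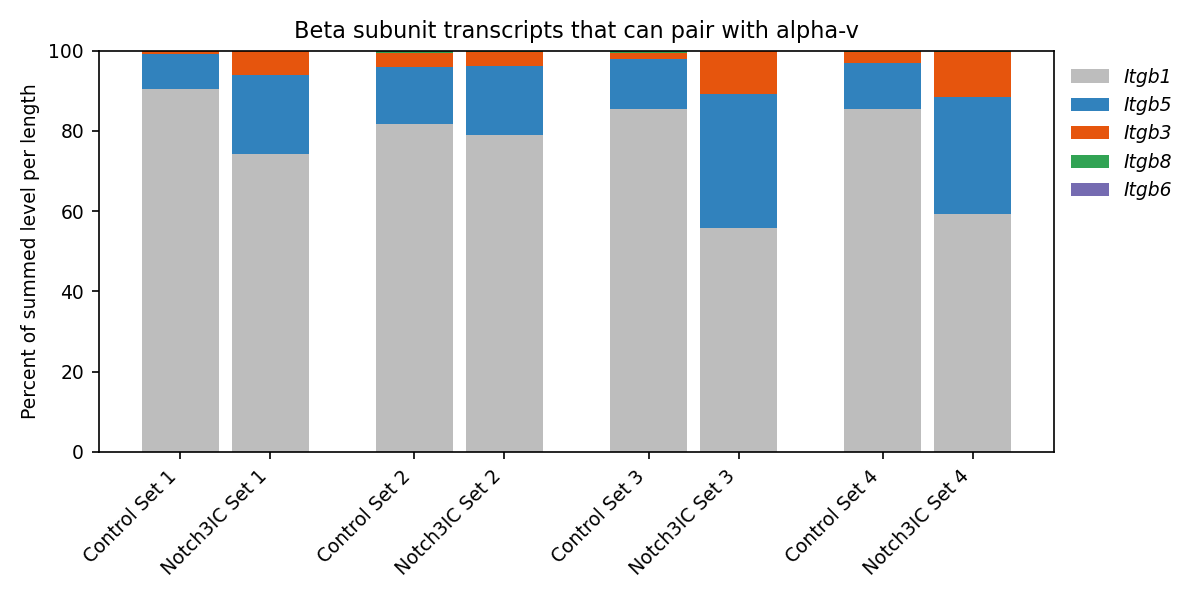
Percent of the summed level per length (stacked bars, 0 to 100%) taken by each beta chain gene that can pair with αv, for the Control and Notch3IC line of each set. The Itgb5 and Itgb3 segments together are wider in the Notch3IC line of each set, least so in Set 2, and Itgb6 and Itgb8 are too scarce to see clearly.

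Relative to its alpha partner, Itgb5 stood at 0.731, 0.751, 0.772 and 0.663 times the per-length level of Itgav in the Control lines and at 1.77, 0.955, 2.75 and 2.33 times in the Notch3IC lines. The ratio was thus below 1 in all Control lines and above 1 in the Notch3IC lines of Sets 1, 3 and 4. That crossing of 1 depends on the exon lengths used. In normalized counts, not divided by length, Itgb5 was below Itgav in every line. The per-length ratio of Itgb3 to Itgav had a mean of 0.122 in Control and 0.629 in Notch3IC and stayed below 1 in all 8 libraries. Among the 5 alpha genes, Itga9 took 0.0814% ± 0.0501 of the summed per-length level in Control and 5.89% ± 3.87 in Notch3IC (SD, n = 4 per group) without overlap, whereas Itgav and Itga5 together held most of the sum in every library. These are transcript shares, and they say nothing of the amount of each heterodimer at the cell surface.

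The integrin subunits outside this group differed in both directions. Of 16 such genes, 10 were tested, 3 were called higher and 1 lower, with a median log2FC of 0.05, beside 3.40% and 0.740% of all genes tested. The higher genes were Itga1 (log2FC 3.86) and Itga11 (3.47), which encode collagen-binding chains, and Itga7 (2.97), a laminin-binding chain. The call of Itga7 was lost in 6 of the 8 fits without 1 library (adjusted p up to 0.237), all but those without Control of Set 1 or Notch3IC of Set 2, and without Set 1 (0.105), Set 3 (0.467) or Set 4 (0.548). Its groups overlapped, with 46.8 normalized counts in Notch3IC of Set 2 against 121 in Control of Set 1. Itga11 lost its call in 4 (either line of Set 3 or Set 4, up to 0.144) and Itga1 in 2 (Control of Set 3 or Set 4, up to 0.112). DESeq2 called 4 higher and 1 lower (5.05% and 1.37% over all genes), and the added gene was Itgax, a leukocyte chain with 0 counts in every Control line and 51, 1, 16 and 25 in Notch3IC. With the set as a block 3 were called higher and 2 lower (5.19% and 2.53% over all genes), and the added gene was Itgb2, another leukocyte chain (block log2FC -1.16, adjusted p = 0.0580 by edgeR, lower in 4 of 4 sets). Itga3, another laminin-binding chain, fell by 1.25 on the log2 scale (adjusted p = 0.0488 by edgeR), a call lost in 4 of the 8 (either line of Set 3 or Set 4, up to 0.161). Itga3 had 3698, 3460, 4573 and 5514 normalized counts in Control and 1078, 2764, 1688 and 1720 in Notch3IC, so that these groups were apart.

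Ligands of the receptors were then examined from lists of matrix and cell surface proteins. Of 22 ligands of the αv, α5 and α8 integrins, 17 were tested, 5 were called higher (Fbn1, Tnc, Tgfb1, Nov and Postn) and 0 lower, with a median log2FC of 0.46, beside 3.40% and 0.740% of all genes tested. DESeq2 called 7 higher (5.05% over all genes) and 0 lower, and 8 genes had an unadjusted p under 0.05 (18.4% of all genes tested did), all with positive log2FCs. Postn, the gene of periostin, had 63.4, 13.1, 7.65 and 3.17 normalized counts in Control and 4069, 278, 1273 and 1681 in Notch3IC (log2FC 6.40, adjusted p = 0.0250 by edgeR). The 2 groups did not overlap, and Set 1 was the highest within each. Fbn1, which codes for the RGD-bearing microfibril protein fibrillin-1, rose from 4782 ± 1656 to 14116 ± 5104 (SD, n = 4 per group), with a log2FC of 1.56 (adjusted p = 0.0435 by edgeR). However, 20.1% of the exon bases of Fbn1 lie opposite Gm9913. Nov, a matricellular protein of the CCN family, was scarcer, at 5.55 to 19.1 normalized counts in Control and 68.2 to 118 in Notch3IC, and rose by 2.67 on the log2 scale (adjusted p = 0.0182 by edgeR).

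Fibronectin, the ligand that α5β1 and several αv receptors share, had by far the most counts of these ligands. Fn1 had 156280, 119464, 161704 and 120165 normalized counts in Control and 397902, 120175, 352516 and 312797 in Notch3IC. Sets 1, 3 and 4 were higher in Notch3IC and Set 2 was level, with log2 ratios of 1.35, 0.01, 1.12 and 1.38. The log2FC of 1.09 had an adjusted p of 0.134 by edgeR and was not called, while DESeq2 called it at 0.0195. Without the Notch3IC line of Set 2, edgeR called Fn1 at a log2FC of 1.35 (adjusted p = 0.00447). With both lines of Set 2 left out, edgeR called it at 1.28 (adjusted p = 0.0146). With the set as a block, Fn1 had a log2FC of 0.97 (adjusted p = 0.0584 by edgeR), short of the limit for a call. Thbs1, the gene of thrombospondin-1, had a log2FC of 1.83 with an adjusted p of 0.176, and it was called with the set as a block (0.0215) and by DESeq2 (0.0235), with Notch3IC higher in 4 of 4 sets. Spp1, the gene of osteopontin, had a log2FC of 0.02 (SE 0.31, adjusted p = 0.985 by edgeR) and took opposite directions in different sets, and its sign changed with DESeq2 and with library totals alone as scaling.

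Of 9 ligands of α4 and α9 integrins, which include Fn1 and Spp1, 7 were tested and 1 was called higher, with a median log2FC of 0.25, where 3.40% of all genes tested were called higher. The called gene was Tnc, whose product tenascin-C is bound by both α9β1 and αvβ3. DESeq2 called 3 higher, adding Fn1 and Adam12, and the block called 2, adding Adam12, against 5.05% and 5.19% over all genes. Adam12, which encodes a disintegrin and metalloprotease bound by α9β1, had 1727, 2117, 370 and 341 normalized counts in Control and 3733, 2894, 2739 and 2947 in Notch3IC. The groups did not overlap, and the Control lines of Sets 3 and 4 were far below those of Sets 1 and 2. Its log2FC of 1.44 had an adjusted p of 0.232 by edgeR, which was 0.0674 with the block (log2FC 1.87) and 0.0751 by DESeq2. Tnc had 1123, 3667, 1187 and 739 normalized counts in Control and 9094, 5584, 8060 and 11587 in Notch3IC. All Notch3IC lines were above all Control lines, and the pair of Set 2 was the closest, its Control line being the highest. The log2FC was 2.36 (SE 0.50, adjusted p = 0.0451 by edgeR). The call was lost without the Control line of Set 3 (0.146) or Set 4 (0.130), without the Notch3IC line of Set 3 (0.112) or Set 4 (0.140), and without Set 1 (0.118), Set 3 (0.316) or Set 4 (0.351). Vcam1, which encodes the cell surface partner of α4β1, was lower in Notch3IC in 4 of 4 sets, but the groups overlapped and its log2FC of -0.42 had an adjusted p of 0.558 by edgeR. Under the block Vcam1 had a log2FC of -0.48 and an adjusted p of 0.0345 by edgeR, short of the limit for a call.

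**Figure D5:**
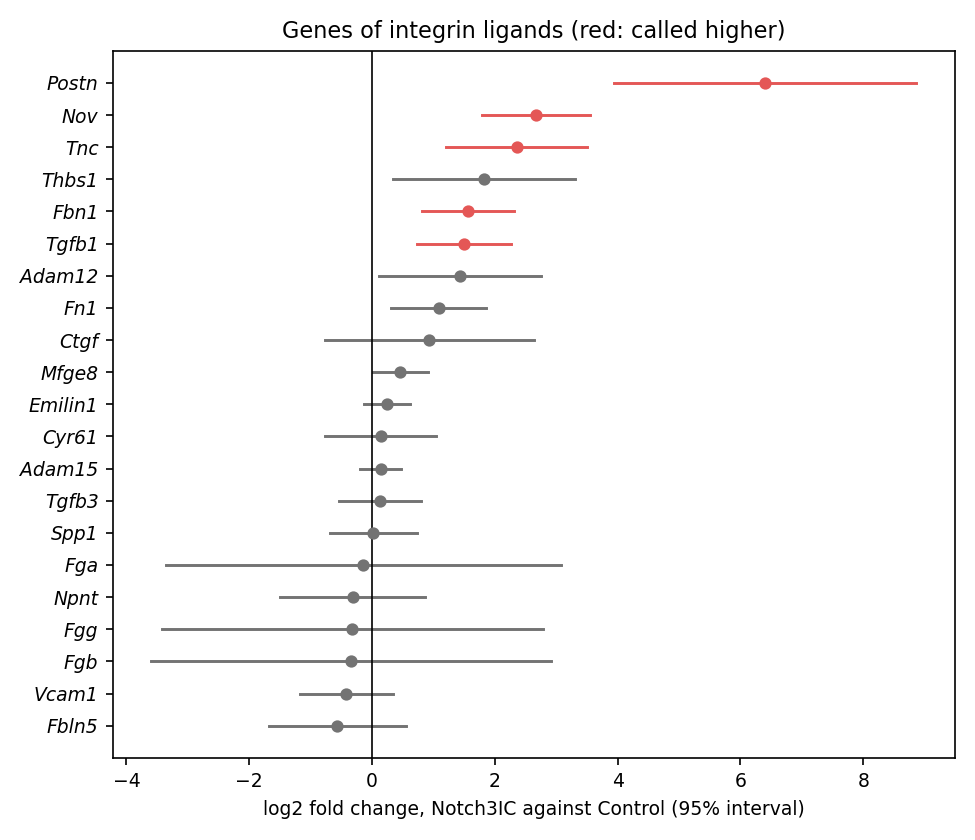
Log2 fold change of Notch3IC against Control (horizontal axis, points) with its 95% interval (lines) for each tested gene of the 2 ligand lists, ordered by value, in red where called higher. Postn lies farthest to the right at 6.40, and the called genes Fbn1, Tnc, Tgfb1, Nov and Postn all have intervals above 0.

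Genes that handle latent TGF-β, the cargo of several αv receptors, were all 7 tested, and 3 were called higher and 0 lower by edgeR and by DESeq2, with 4 at an unadjusted p under 0.05. Over all genes tested, edgeR called 3.40% higher and 0.740% lower, DESeq2 5.05% and 1.37%, and 18.4% had such a p by edgeR. Tgfb1 had 845, 796, 566 and 560 normalized counts in Control and 2809, 833, 2076 and 2058 in Notch3IC. Set 2 again stood apart, as its Notch3IC value of Tgfb1 was below the highest Control value, and the log2FC was 1.49 (adjusted p = 0.0508 by edgeR). Tgfb1 was not called without the Control line of Set 3 (0.155) or Set 4 (0.171), the Notch3IC line of Set 3 (0.131) or Set 4 (0.149), or the whole of Set 1 (0.103), Set 3 (0.354) or Set 4 (0.430). Tgfb2, whose latency peptide lacks the RGD sequence, rose from 1003 ± 295 to 3208 ± 1344 (SD, n = 4 per group; log2FC 1.68, adjusted p = 0.0316 by edgeR). Lrrc32, which encodes the surface anchor GARP for latent TGF-β, rose from 33.7 ± 25.5 to 546 ± 351 (SD, n = 4 per group), a log2FC of 4.05 (adjusted p = 0.0276 by edgeR). Ltbp3, a secreted binding protein of latent TGF-β, and Tgfb3 were the most abundant of the 7 in Control and were not called, with log2FCs of 0.28 and 0.13.

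Next came the genes that turn integrins on or off at the cytoplasmic face and those that signal from them. Over all genes, edgeR called 3.40% higher and 0.740% lower, DESeq2 5.05% and 1.37%, and 18.4% had an unadjusted p under 0.05. Of 7 tested activators, 0 were called in either direction by edgeR and 1 higher by DESeq2, with 4 at an unadjusted p under 0.05. The gene DESeq2 called was Tln2, which encodes talin-2, and the block called it as well (block log2FC 1.33, adjusted p = 0.0344 by edgeR, higher in 4 of 4 sets). Tln1, the gene of the main integrin activator talin-1, had a log2FC of 0.21 (SE 0.24), and Rap1b, a small GTPase upstream of talin, had 0.34 (SE 0.11). Among the 4 inactivators 0 were called by either tool and 0 had an unadjusted p under 0.05, with Flna at 0.17 and Dok1 at 0.39. Of 17 tested genes of integrin signaling, 0 were called by edgeR and 1 higher by DESeq2, and 6 had an unadjusted p under 0.05. That gene was Tns1, which encodes tensin-1, and the block called it too (block log2FC 1.37, adjusted p = 0.0772 by edgeR, higher in 4 of 4 sets). Zyx and Tns3, the most abundant of these genes, had log2FCs of -0.01 and 0.58, the former with a sign that depended on the libraries included. Pxn, the focal adhesion scaffold paxillin, and Parva, the actin linker parvin, passed the p threshold with log2FCs of -0.54 (adjusted p = 0.0833) and 0.48 (adjusted p = 0.0952, both by edgeR), short of the limit for a call.

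Markers of cell types were read beside these results, because fewer cells of a type and less RNA per cell cannot be told apart in bulk libraries. All 9 ovarian surface epithelium markers in the tables had counts. Upk3b, a uroplakin of mesothelial and surface epithelium, was the most abundant overall. In Notch3IC, Wt1 was ahead of it in Set 1 (3138 counts against 888) and Set 4 (8588 against 6784), and Krt8 in Set 1 (1201). All 7 of these markers that were tested had negative log2FCs (median -0.80), and 1, Msln, was called lower (-2.60), as 0.740% of all genes tested were. With the set as a block 3 were called lower, Msln, Krt19 (block log2FC -2.10, adjusted p = 0.0288) and Upk3b (-1.98, adjusted p = 0.0319, both by edgeR), and DESeq2 called these and Krt7, 4 in all, where the block called 2.53% and DESeq2 1.37% of all genes lower. Their summed level was 923, 1706, 2708 and 2636 CPM in Control and 302, 1097, 1031 and 786 CPM in Notch3IC, lower in Notch3IC in each set. Smooth muscle and mural markers went the other way, with Pdgfrb (log2FC 5.99) and Cspg4 (4.2) called higher of 5 tested. With the set as a block all 5 were called higher, adding Acta2 (block log2FC 1.45, adjusted p = 0.0362), Tagln (1.07, adjusted p = 0.0451) and Cnn1 (1.04, adjusted p = 0.0849, all by edgeR), and DESeq2 called 3, Pdgfrb, Cspg4 and Rgs5. The shares called higher over all genes were 3.40% by edgeR, 5.19% with the block and 5.05% by DESeq2. The exon bases of Tagln lie to 67.9% opposite other genes. The summed level of the 8 mural markers, mostly Acta2, was 1530, 492, 320 and 129 CPM in Control and 3524, 837, 1343 and 1078 CPM in Notch3IC, with no marker at 0 throughout. Their part in the integrin results was not tested.

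Leukocyte, endothelial and platelet genes had low summed levels. The 10 leukocyte markers summed to 2.46 to 5.54 CPM in Control and 3.64 to 5.46 CPM in Notch3IC, with Cd68 the most abundant overall and Csf1r ahead of it in Notch3IC of Set 1 (36 counts against 31), and with Cd3e and Emr1 at 0 in all 8 libraries and Ptprc at 0 in all Control lines. Of these markers 2 were tested, and 1, Csf1r, was called higher (log2FC 1.52), beside 3.40% of all genes, although 15.1% of its exon bases lie opposite Hmgxb3. The 6 endothelial markers summed to at most 2.16 CPM in any library, with Pecam1 the most abundant overall and Kdr ahead of it in Control of Set 1 (14 counts against 9) and level with it in Notch3IC of Set 1 (22 each), and the 4 platelet markers to at most 4.64 CPM, led by Itga2b, with Gp9 and Pf4 at 0. Of the 2 endothelial genes and 1 platelet gene tested, 0 were called by edgeR and 0 had an unadjusted p under 0.05. DESeq2 called 1 gene higher (5.05% over all genes), Gp1bb, a platelet gene too low for edgeR's filter (0, 0, 0 and 3 counts in Control, 9, 7, 16 and 14 in Notch3IC), and 92.9% of its exon bases lie over Sept5 and Gm49601 on the same strand.

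Genes whose pattern over the 8 libraries was most like that of each called subunit were ranked by Pearson's r of log2 CPM. For Itga9 they were Hecw2 (r = 0.998), Epha3 (0.996) and Fmod (0.995), for Itgb3 Slc26a2 (0.994), Serping1 (0.990) and Xiap (0.988), and for Itgb5 Ptger4 (0.996), Ank1 (0.995) and Gramd4 (0.994). Between the subunits themselves r was 0.953 for Itga9 and Itgb5, 0.929 for Itgb3 and Itgb5, and 0.905 for Itga9 and Itgb3. These values are a description over 8 libraries that share the Notch3IC and Control split and the weak response of Set 2. Fmod, which encodes the matrix proteoglycan fibromodulin, went from 32.5 to 85.9 normalized counts in Control to between 1440.3 and 11819 in Notch3IC, with its lowest Notch3IC value in Set 2. Xiap, an inhibitor of apoptosis, kept close to the order of Itgb3 over a much narrower range, from 1200.4 to 1374 normalized counts in Control and from 1442 to 1728 in Notch3IC.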

How the data were processed

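RNA-Seq of poly-A RNA was performed as 100-base single-end reads, aligned by the authors with TopHat and further processed with Cufflinks and DESeq. The submitters' processing notes name mm9, and versions, annotation and strand setting are not given in the sources used here. The authors deposited raw counts per gene symbol, 1 table per library, which were joined by symbol. Counts were tested with edgeR 4.0.16 (R 4.3.3): TMM scaling, filterByExpr by group, robust quasi-likelihood F test of condition, and Benjamini-Hochberg adjustment over the 12430 genes kept. DESeq2 1.42.0, other scalings, filters and thresholds, the set as a block, and leaving out each library or set were alternatives. The block was fitted because the study made lines as matched sets, and deviations from the group means correlated within each set (r = 0.794, 0.398, 0.569 and 0.416). Sets 3 and 4 also correlated with each other (r = 0.375 and 0.394). The biological coefficient of variation was 26.3%, and 14.1% with the block. Standard errors were derived from the F statistic. Ratios within sets, with 0.5 counts added, have exact 95% counting intervals. Exon lengths and positions came from GENCODE M21 (GRCm38), and promoter windows from RefSeq, not from mm9. Genes named were the 10 subunits, Itgb1, Notch3 and its targets, and in each list those called and the most abundant in Control. Thbs1, Vcam1, Adam12, Pxn, Parva, Tns1, Tln2, Itgax, Itgb2, the markers other than those called, Fmod and Xiap were singled out after their values were seen. Itga8, Itgb6 and Itgb7 did not pass the low count filter. The members, lists and tests were chosen with earlier results of these data known. The code was tested on simulated data.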

Additional observations from a re-analysis of the deposited data

Results flagged for a closer look

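A total of 8 values lay far from the other 3 libraries of their group by Dixon's criterion at the 95% level, among 72 groups of 4 examined, where chance gives about 3.6. In Set 1, Itgb1 had 25350 normalized counts in Control, with the other Controls between 15204 and 16121, and 28470 in Notch3IC, with the others between 16313 and 17610. Flna had 66095 in Notch3IC of Set 1, against 39814 to 42380 in the others, and Postn had 63.4 in Control of Set 1, against 3.17 to 13.1. Notch3 had 70.8 in Control of Set 3, against 38.7 to 42.0. Tnc had 3667 in Control of Set 2, against 739 to 1187. For Itgb6, which was listed at 0 in the remaining libraries, the value was 3.97 in Control of Set 1 and 0.919 in Notch3IC of Set 3, each from 4 reads or fewer. With the others of a group at 0, any read meets the criterion, so the Itgb6 values say nothing of an excess over chance.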

How the results depend on the processing

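Itga9, Itgb3 and Itgb5 stayed called with DESeq2, RLE, upper-quartile and total-count scaling, without the filter, at an adjusted p under 0.05, without a fold limit and with the set as a block. Requiring 10 counts in every library dropped Itga9, which had under 10 in 2 Control lines, and left 2. Leaving out 1 library or 1 set gave 0 to 4 of the 10 called higher and 0 lower. Only Itga9 was called without Control of Set 3 or of Set 4 (75 and 99 genes higher over all), and 0 without Set 3 or Set 4, where 3 had an unadjusted p under 0.05. Over all genes, 708 were called higher and 192 lower by DESeq2, 645 and 315 with the set as a replicate block, 48 lower at an adjusted p under 0.05, 210 lower without a fold limit, and 0 to 702 higher and 0 to 305 lower in fits without 1 library or set. Without Set 4, edgeR called 0 genes and 1011 had an unadjusted p under 0.05, and without Set 3 it called 1 and 1101 had. The block ended no call among the 10. Without Set 3 or Set 4 the called genes checked this way (Itga9, Itgb3, Itgb5, Itga1, Itga3, Itga7, Itga11, Fbn1, Tnc, Tgfb1, Nov, Postn, Tgfb2, Lrrc32, Notch3, Hey1, Heyl and Nrarp) each lost the call, and without 1 library Fbn1 lost it in 3 of 8 fits (adjusted p up to 0.143), Postn, Tgfb2 and Lrrc32 in 2 (without Control of Set 3 or Set 4, up to 0.124), and Nov, Notch3, Hey1, Heyl and Nrarp in 0. Of the alternatives for named genes, 584 kept direction and call, 80 lost a call, 4 gained one and 18 changed sign. Of the transcript shares, 13 moved by over 1 SD with counts not divided by length. The log2 fold change of Spp1 was -0.0012 with DESeq2 and -0.014 with library totals, and ranged from -0.21 to 0.20 in fits without a library or set. That of Zyx was 0.017 with the block and ranged from -0.19 to 0.26. In the same fits Itgb1 ranged from -0.079 to 0.34, Tgfb3 from -0.079 to 0.33, Tln1 from -0.018 to 0.40 and Flna from -0.020 to 0.35. The cause was not tested. Fewer than 40 reads over a group limit Itga8, Itgb6, Itgb7 and Itga4 in Control.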

Other observations

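Genes of plasma proteins, some of which are integrin ligands, were read by library after the values of Vtn and the fibrinogen genes had been seen. Vtn, which encodes vitronectin, the ligand of αvβ3 and αvβ5, had 0 counts in both lines of Sets 1 and 2, 8 and 26 in the Control lines of Sets 3 and 4, and 13 and 18 in their Notch3IC lines. Fga, Fgb and Fgg, which encode the fibrinogen chains, had 0 counts in all 4 libraries of Sets 1 and 2 and between 18 and 70 in each library of Sets 3 and 4. Alb, the gene of serum albumin, had 0, 0, 351 and 804 counts in Control and 0, 1, 329 and 543 in Notch3IC of Sets 1 to 4. These counts separated the sets, not the lines, and their source was not tested.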
